A study of Mus musculus with 8 samples.

Results

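The mouse mitochondrial genome is represented in the gene tables by 37 of 37620 rows, those whose Ensembl ID has a symbol starting with mt-. They comprise 13 mRNAs for subunits of the respiratory chain, 2 ribosomal RNAs and 22 transfer RNAs, and membership rests on the name alone, not on any measured value. The RNA came from cells sorted from mouse small intestinal epithelium, as 4 CD24Mid libraries (numbered 1, 3, 5 and 7) and 4 CD24Neg libraries (numbered 2, 4, 6 and 8). CD24Mid cells carry an intermediate level of the surface protein CD24, which the submitters also call CD24low, and CD24Neg cells were sorted as negative for it. Cells of both groups had been cleared of CD45 positive cells, which are of blood origin, and of cells binding the lectin UEA. The series concerns differentiation in this epithelium, and the groups are called biological replicates, but the sources used here do not state strain, age, genotype or whether each library came from 1 mouse. If the replicates were not separate animals, the p-values cover only the spread between these samples.

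The mitochondrial genome is a small circle that is copied into long RNA precursors from both strands. The tRNAs lie between most of the other genes and are cut out of the precursors, which frees the mRNAs and rRNAs. Complexes I, III, IV and V of the respiratory chain combine mitochondrially encoded with nuclear-encoded subunits, whereas complex II is wholly nuclear-encoded. The absorptive enterocyte is known as a cell rich in mitochondria.

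The main measurement is the number of reads that fit 1 gene only, here called gene-unique counts, of which there were 15473071 to 17537818 per CD24Mid library and 11340782 to 18928233 per CD24Neg library. All 7 enterocyte markers were lower in CD24Mid (a summed 859 to 1478 counts per 1000000, CPM, against 22450 to 39320 CPM in CD24Neg) and all 5 stem cell markers were higher (3068 to 4050 CPM against 122 to 355 CPM). All CPM in this text divide counts by the library total times its TMM factor, a scaling described below. They are not counts per plain library total. Markers of cells that the sort should remove were also present. The 7 tested of 8 T and NK lymphocyte markers were all lower in CD24Mid (3.68 to 12.9 CPM against 27.9 to 506 CPM), and 5 of 6 B and plasma cell markers were higher (394 to 1011 CPM against 22.6 to 53.8 CPM).

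Mitochondrially encoded genes took 8.94%, 9.17%, 8.03% and 8.25% of the gene-unique counts in CD24Mid libraries 1, 3, 5 and 7. In CD24Neg libraries 2, 4, 6 and 8 they took 35.1%, 27.7%, 28.3% and 37.0%. The groups did not overlap, and the mean share was 3.72-fold lower in CD24Mid (8.60% ± 0.546 against 32.0% ± 4.71, SD, n = 4 each, two-sided exact permutation test, p = 0.0286). That is the smallest p that 4 libraries against 4 can give. As a ratio of mitochondrial to all other counts, which does not depend on how libraries are scaled, CD24Mid was lower by a log2 difference of -2.32, or 4.99-fold. In bulk samples, fewer cells of a type and less RNA per cell cannot be told apart.

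Among the CD24Neg libraries, numbers 2 and 8 had the highest mitochondrial shares, and the same libraries had the highest summed T and NK lymphocyte markers. That sum was 506, 27.9, 76.8 and 359 CPM in CD24Neg libraries 2, 4, 6 and 8, and no marker of the list was at 0 throughout. The enterocyte marker sum ran the other way, at 22760, 34399, 39315 and 22450 CPM in the same libraries. The nuclear-retained RNAs Malat1 and Neat1 summed to 513 to 616 CPM in CD24Mid and 1472 to 1971 CPM in CD24Neg. The 5 goblet cell markers, of which 3 were lower in CD24Mid and 0 higher, summed to 1256 to 2102 CPM in CD24Mid and to 8605, 10627, 4086 and 4965 CPM in CD24Neg libraries 2, 4, 6 and 8. The part of these differences in the mitochondrial share was not tested.

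Of the 37 members, 14 had enough counts to be tested, namely 12 mRNAs and both rRNAs, and all 14 were lower in CD24Mid. The threshold was an adjusted p of 0.05 (edgeR quasi-likelihood test, Benjamini-Hochberg over 12840 genes), and the largest adjusted p among them was 6.22e-06. By this rule 34.3% of all tested genes were higher in CD24Neg, 35.5% were higher in CD24Mid and 69.8% were called in either direction. The median log2 fold change, CD24Mid over CD24Neg, was -2.80 over the 14 genes and 0.015 over all genes tested. Between 2.25% and 5.97% of all tested genes had a log2 fold change below that of each of the 14. No member's CPM overlapped between the groups, and 31.4% of all tested genes were without overlap and higher in CD24Neg.

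These fold changes depend in size on library scaling. TMM, the scaling used, sets most genes level between the groups and gave factors of 1.335 to 1.42 in CD24Mid and 0.697 to 0.757 in CD24Neg. On unscaled library totals the median of all genes was at 0.96 and that of the 14 members at -1.85, with all 14 still called lower in CD24Mid. Over all genes, 4557 were called higher and 4410 lower in CD24Mid with TMM, against 8959 higher and 1659 lower on unscaled totals. Fold changes of the tested members below are with TMM. Counts and percentages of all counts printed beside them are unscaled and differ less between the groups.

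**Figure D1:**
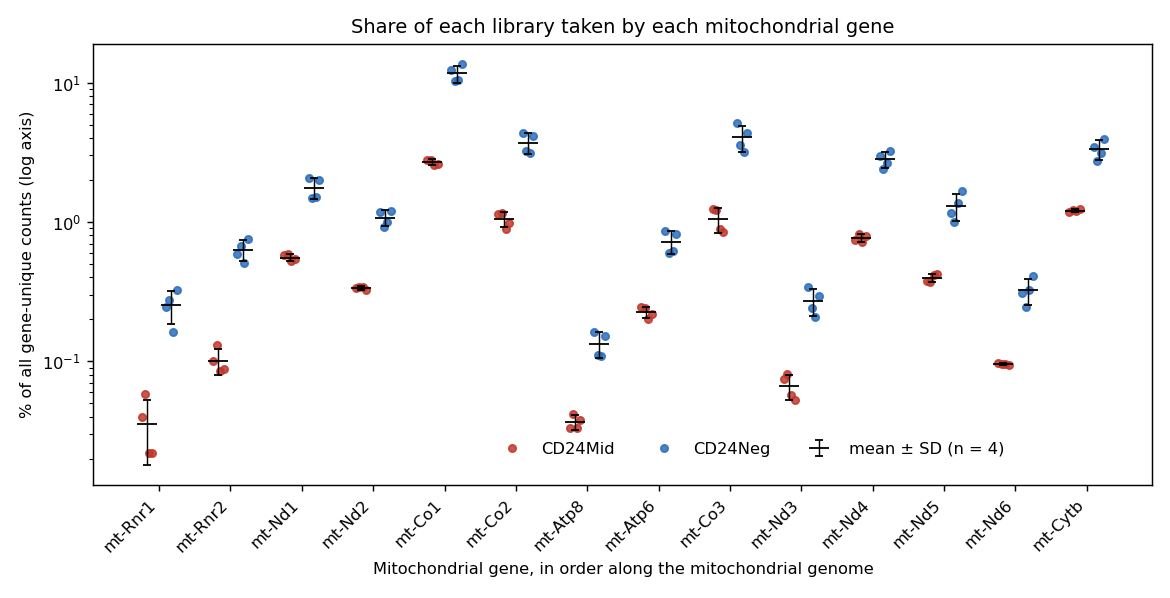
Share of all gene-unique counts (percent, log axis) taken by each of the 14 tested mitochondrial genes, with 1 point per library, CD24Mid left of CD24Neg, and the mean ± SD of 4 libraries in black. For every gene the 4 CD24Mid points lie below the 4 CD24Neg points, from 0.035% against 0.253% on average for mt-Rnr1 up to 2.69% against 11.6% for mt-Co1.

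The 2 ribosomal RNAs, which form the core of the mitochondrial ribosome, had the lowest fold changes of the members. mt-Rnr1, the RNA of the small subunit (12S), had 6180, 9081, 3710 and 3820 gene-unique counts in CD24Mid libraries 1, 3, 5 and 7, against 28034, 31665, 30787 and 41647 in CD24Neg libraries 2, 4, 6 and 8. With TMM its level was 13.6-fold lower in CD24Mid, a log2 fold change of -3.77 ± 0.38 (SE, adjusted p by edgeR 6.22e-06). mt-Rnr2, the RNA of the large subunit (16S), had 15425, 20586, 14323 and 15449 counts in CD24Mid and 66569, 77124, 96235 and 97584 in CD24Neg. With TMM its level was 12.0-fold lower in CD24Mid, a log2 fold change of -3.59 ± 0.22 (SE, adjusted p by edgeR 2.96e-07).

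Complex IV, cytochrome c oxidase, holds 3 mitochondrially encoded subunits, which form its catalytic core. mt-Co1 carried the most counts of all members. It took 2.78%, 2.81%, 2.55% and 2.61% of all gene-unique counts in CD24Mid libraries 1, 3, 5 and 7, against 12.3%, 10.2%, 10.4% and 13.6% in CD24Neg libraries 2, 4, 6 and 8. Its log2 fold change with TMM, -3.06 ± 0.22 SE, was the lowest among the mRNAs and stood for 8.35-fold less in CD24Mid. mt-Co2 and mt-Co3 were 6.84-fold and 7.47-fold lower in CD24Mid. mt-Co3 was more variable within groups, at 1.23%, 1.21%, 0.887% and 0.843% of counts in CD24Mid and 5.12%, 3.56%, 3.18% and 4.36% in CD24Neg.

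Complex III has a single mitochondrially encoded subunit, cytochrome b, from mt-Cytb. It took 1.17%, 1.22%, 1.20% and 1.23% of counts in CD24Mid libraries 1, 3, 5 and 7, against 3.47%, 2.73%, 3.13% and 3.96% in CD24Neg libraries 2, 4, 6 and 8. The CD24Mid libraries were nearly level with each other, and the groups were well apart. The log2 fold change of mt-Cytb with TMM was -2.41 ± 0.20 SE (5.32-fold lower in CD24Mid). It differed least between the groups of the 14 members tested.

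Complex I, NADH dehydrogenase, takes 7 subunits from the mitochondrial genome, of which 6 could be tested. They were between 6.13-fold lower in CD24Mid (mt-Nd1) and 7.82-fold lower (mt-Nd3), with a median log2 fold change of -2.68. mt-Nd4 had the most counts of them, at 114400, 129263, 121685 and 139936 in CD24Mid and 336564, 275280, 503861 and 415985 in CD24Neg. It was 7.05-fold lower in CD24Mid.

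mt-Nd6 is the only mRNA encoded on the opposite strand, where 8 of the tRNA genes also lie. It was 6.51-fold lower in CD24Mid, and its ratio to mt-Nd5, the gene it meets tail to tail, was 0.260, 0.260, 0.229 and 0.224 in CD24Mid against 0.268, 0.245, 0.238 and 0.248 in CD24Neg. These ratios overlapped (two-sided exact permutation test, p = 0.60, n = 4 each). The last 60 bases of both genes are printed because they share 14 bases on opposite strands, in capitals, and the strand setting of the counting is not given in the sources used here. Sequences are from the GENCODE transcripts of the build GRCm38, a later build than that of the counts; mt-Nd5 lies at chrM:11742-13565 on the plus strand and mt-Nd6 at chrM:13552-14070 on the minus strand.
mt-Nd5 end: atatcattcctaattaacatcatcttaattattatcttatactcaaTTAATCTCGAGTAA
mt-Nd6 end: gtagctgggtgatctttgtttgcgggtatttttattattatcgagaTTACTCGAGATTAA

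Complex V, the ATP synthase, takes mt-Atp6 and mt-Atp8 from the mitochondrial genome, both parts of its membrane sector. The 2 genes overlap in the same direction, so that a read inside the 43 shared bases, in capitals, fits both. mt-Atp8 lies at chrM:7766-7969 and mt-Atp6 at chrM:7927-8607, both on the plus strand of GRCm38, and mt-Atp6 is shown by its first 120 bases.
mt-Atp8: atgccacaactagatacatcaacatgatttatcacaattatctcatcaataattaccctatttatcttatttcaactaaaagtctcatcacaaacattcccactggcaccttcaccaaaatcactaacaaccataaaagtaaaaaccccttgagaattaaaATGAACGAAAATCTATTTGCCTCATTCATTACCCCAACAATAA
mt-Atp6 start: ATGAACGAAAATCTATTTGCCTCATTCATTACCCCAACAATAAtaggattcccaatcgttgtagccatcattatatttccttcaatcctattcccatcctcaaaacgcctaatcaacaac

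Gene-unique counts were also set against the deposited estimated reads, a separate measure in which shared reads are divided among genes. As a ratio of these measures, gene-unique counts of mt-Atp6 came to 26.7% of its estimated reads and those of mt-Atp8 to 41.3%. For the other tested members the ratio was 100.1% to 103.9%, except that mt-Co1 and mt-Co2 stood at 93.5% and 93.0%. Of windows of 50 bases, 27.8% of those in mt-Co1 also occur in Gm13340 or Gm11512, and 35.3% of those in mt-Co2 in Gm13341. The figure was 8.2% for mt-Nd2 (Gm13339) and 3.6% for mt-Nd5 (Gm11407). The 43 bases are not shown to be the only place where mt-Atp6 shares reads. No window of 50 bases of mt-Atp6 occurs in another GRCm38 transcript, but an Ensembl row with no symbol and no sequence at hand, ENSMUSG00000090378, kept a ratio of 0.508 to 0.543 to mt-Atp6 in CD24Mid and 0.513 to 0.523 in CD24Neg. Whether it shares reads with mt-Atp6 was not tested, and the gene-unique values of mt-Atp6 and of complex V carry that limit. On gene-unique counts mt-Atp8 was 7.10-fold and mt-Atp6 6.16-fold lower in CD24Mid. The ratio of mt-Atp8 to mt-Atp6 depended on how shared reads were treated. On gene-unique counts it was 0.135, 0.175, 0.165 and 0.172 in CD24Mid against 0.189, 0.185, 0.178 and 0.187 in CD24Neg, without overlap (two-sided exact permutation test, p = 0.0286, n = 4 each). On estimated reads it was 0.108, 0.118, 0.124 and 0.134 in CD24Mid against 0.110, 0.103, 0.1203 and 0.115 in CD24Neg, which overlapped (two-sided exact permutation test, p = 0.229, n = 4 each).

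mt-Nd4l, the smallest complex I subunit of this genome, had no gene-unique count in any of the 8 libraries. Its coding sequence (chrM:9877-10173, GRCm38, plus strand) is printed because 294 of its 297 bases are repeated without a change in the nuclear pseudogene Gm10222 (chr1:24612407-24612700, minus strand). The capitals mark the bases absent from the copy.
mt-Nd4l: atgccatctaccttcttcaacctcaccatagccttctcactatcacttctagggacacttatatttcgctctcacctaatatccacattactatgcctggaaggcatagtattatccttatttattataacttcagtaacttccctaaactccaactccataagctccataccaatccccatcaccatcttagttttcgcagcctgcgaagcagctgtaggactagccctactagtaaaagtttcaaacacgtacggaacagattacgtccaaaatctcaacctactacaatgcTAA

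Of all windows of 50 bases in mt-Nd4l, 98.8% also occur in Gm10222. The deposited estimate divided their reads unevenly between libraries: mt-Nd4l received 99.1%, 99.9%, 47.9% and 1.37% of the pair in CD24Mid libraries 1, 3, 5 and 7, and 63.6%, 99.99%, 51.4% and 48.6% in CD24Neg libraries 2, 4, 6 and 8. The estimate of either gene alone therefore cannot be read as its level. The sum of the pair was steady within groups, at 575, 659, 630 and 574 reads per 1000000 mapped fragments in CD24Mid against 2294, 1949, 2557 and 2881 in CD24Neg. It was 3.97-fold lower in CD24Mid without overlap (two-sided exact permutation test, p = 0.0286, n = 4 each). No TMM scaling enters this value, unlike the fold changes of the other complex I genes above. On unscaled totals the median log2 fold change of the 14 tested members was -1.85.

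**Figure D2:**
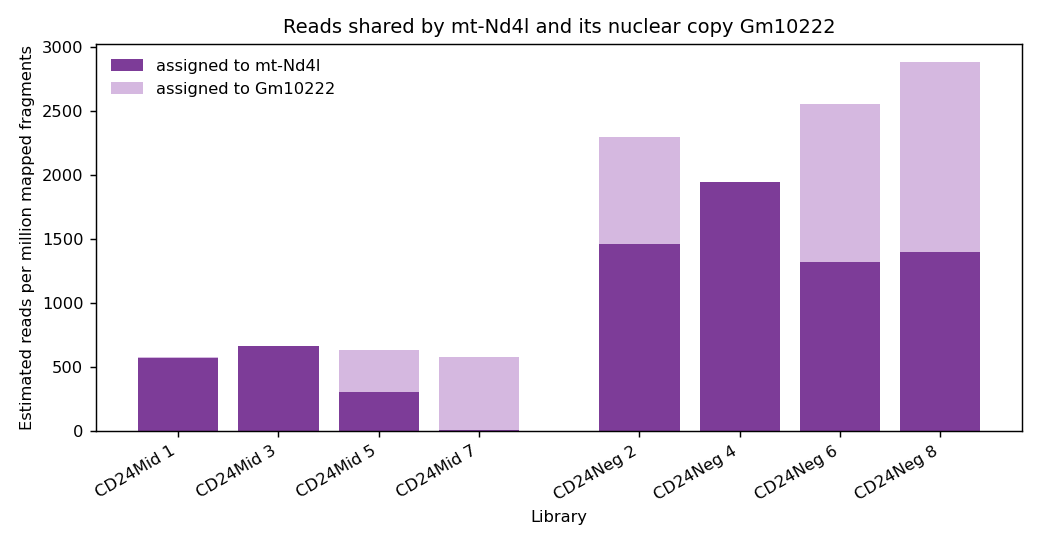
Estimated reads per 1000000 mapped fragments assigned to mt-Nd4l (dark) and to its nuclear copy Gm10222 (light), stacked, for the 4 CD24Mid and the 4 CD24Neg libraries, with 1 bar per library. The height of the bars, 574 to 659 in CD24Mid and 1949 to 2881 in CD24Neg, separates the groups, while the division within a bar varies from nearly all mt-Nd4l to nearly all Gm10222.

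The transfer RNAs, which carry amino acids to the mitochondrial ribosome, were almost without counts. Of the 22 tRNA rows, 20 had 0 counts in all 8 libraries. mt-Ts1 had 1 count in each of CD24Mid libraries 1 and 3, and mt-Tl1 had 1 count in CD24Neg library 6. The limit that a count of 0 allows, 3 counts in a library, corresponded to 0.171 to 0.194 per 1000000 gene-unique counts in CD24Mid and to 0.159 to 0.265 in CD24Neg, for counting error only. With 3 counts in all, the tRNAs were not compared between the groups, and the reason for the low counts was not tested. The genes are 59 to 75 bases long, and the library protocol's lower size limit is not given in the sources used here. The sequences of the 2 tRNAs with any count are printed to show how short these templates are, mt-Tl1 at chrM:2676-2750 on the plus strand and mt-Ts1 at chrM:6870-6938 on the minus strand of GRCm38.
mt-Tl1: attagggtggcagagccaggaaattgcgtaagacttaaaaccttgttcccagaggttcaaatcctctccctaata
mt-Ts1: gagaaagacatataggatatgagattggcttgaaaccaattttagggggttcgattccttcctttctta

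The composition of the mitochondrial RNA was compared next, as shares of the mitochondrial total, which no library scaling can move. Shares sum to the whole, so a higher share of 1 gene lowers the others. The rRNAs took 1.56%, 2.07%, 1.33% and 1.33% of the mitochondrial total in CD24Mid libraries 1, 3, 5 and 7, against 2.37%, 3.43%, 2.37% and 2.93% in CD24Neg libraries 2, 4, 6 and 8. Their share was lower in CD24Mid without overlap (1.57% ± 0.347 against 2.78% ± 0.510, SD, n = 4 each, two-sided exact permutation test, p = 0.0286). Without CD24Neg library 4 the exact permutation p was 0.0571, though the groups stayed without overlap. The mRNAs made up the rest, 97.9% to 98.7% in CD24Mid and 96.6% to 97.6% in CD24Neg. Whether polyadenylated RNA was selected is not given in the sources used here. The part of library preparation in the rRNA shares, and in their difference between groups, was not tested. The ratio of mt-Rnr1 to mt-Rnr2 was 0.401, 0.441, 0.259 and 0.247 in CD24Mid against 0.421, 0.411, 0.320 and 0.427 in CD24Neg, which overlapped (two-sided exact permutation test, p = 0.314).

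Among the mRNAs, complex IV had a lower share in CD24Mid and complex III a higher one. Complex IV took 58.6%, 57.7%, 54.7% and 54.4% of the mitochondrial mRNA counts in CD24Mid libraries 1, 3, 5 and 7, against 63.6%, 63.7%, 60.4% and 61.7% in CD24Neg libraries 2, 4, 6 and 8. Complex III took 13.3%, 13.6%, 15.2% and 15.1% in CD24Mid against 10.1%, 10.2%, 11.3% and 11.1% in CD24Neg. Both differed without overlap (two-sided exact permutation tests, p = 0.0286 each, 4 complexes tested), also on estimated reads and per length. The mean difference on gene-unique counts, CD24Mid minus CD24Neg, was -5.97 points for complex IV and -5.67 points for mt-Co1 alone. The shares of mt-Co2 and mt-Co3 overlapped between the groups and differed in opposite directions. They differed by 0.41 and -0.71 points (two-sided exact permutation tests, p = 0.429 and 0.571, n = 4 each). The complex III share is that of mt-Cytb alone.

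Complex I overlapped between the groups, at 24.95% to 27.3% in CD24Mid and 23.3% to 25.7% in CD24Neg (exact permutation p = 0.0857). Complex V overlapped as well, at 2.94% to 3.16% in CD24Mid and 2.63% to 2.99% in CD24Neg (exact permutation p = 0.0571). The complex V shares exclude most mt-Atp6 reads, which were not gene-unique, and on estimated reads they were 9.20% to 9.81% in CD24Mid and 8.45% to 9.70% in CD24Neg.

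Gene by gene, 6 of the 14 shares of the mitochondrial total did not overlap between the groups. Each had the smallest p the design allows (two-sided exact permutation test, p = 0.0286, 14 tests, not adjusted). Among all tested genes, the CPM of 33% were without overlap and higher in CD24Mid, and those of a further 31.4% were without overlap and higher in CD24Neg. The 6 shares count both directions, so both percentages together stand beside them. CPM is also another measure than a share of the mitochondrial total. Shares were higher in CD24Mid for mt-Cytb, mt-Nd1, mt-Nd2 and mt-Atp6, and lower for mt-Co1 and mt-Rnr2. mt-Cytb took 13.1%, 13.3%, 14.9% and 14.9% of the mitochondrial total in CD24Mid against 9.88%, 9.83%, 11.1% and 10.7% in CD24Neg. mt-Co1 took 31.1%, 30.6%, 31.8% and 31.6% in CD24Mid against 35.1%, 36.9%, 36.7% and 36.8% in CD24Neg. The ratio of mt-Co1 to mt-Cytb combined both, at 2.37, 2.30, 2.13 and 2.12 in CD24Mid against 3.55, 3.76, 3.31 and 3.43 in CD24Neg, 1.58-fold lower in CD24Mid.

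The smaller differences were those of mt-Nd1 (6.46% ± 0.056 of the mitochondrial total in CD24Mid against 5.50% ± 0.236 in CD24Neg) and mt-Nd2 (3.91% ± 0.261 against 3.36% ± 0.133, SD, n = 4 each). mt-Atp6 stood at 2.63% ± 0.105 in CD24Mid and 2.25% ± 0.140 in CD24Neg, but on estimated reads, which include those it shares, its shares overlapped (8.43% ± 0.254 against 7.80% ± 0.515, exact permutation p = 0.0857). Per length, the shares of mt-Nd2 and mt-Atp6 overlapped as well (exact permutation p of 0.0857 and 0.143), while those of the other 4 genes did not. Without any 1 CD24Mid library the mt-Atp6 share gave an exact permutation p of 0.0571, as did that of mt-Nd2 without CD24Mid library 5. These shares stayed without overlap, since leaving out a library cannot make groups overlap, and with 35 regroupings p moves in coarse steps. For mt-Rnr1 the shares overlapped (0.404% ± 0.174 against 0.789% ± 0.187, exact permutation p = 0.0571). The other 7 genes had exact permutation p-values of 0.286 to 0.83.

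The sample titles carry numbers from 1 to 8, and composition differed between low and high numbers within both groups. No label calls the numbers a batch, and this comparison was chosen after seeing the data. The shares of mt-Co2, mt-Co3 and mt-Nd3 were higher in numbers 1 to 4 than in 5 to 8 within both groups, and those of mt-Nd5, mt-Nd6 and mt-Cytb were lower. mt-Co3, for example, took 13.8% and 13.2% in CD24Mid libraries 1 and 3 and 11.05% and 10.2% in CD24Mid libraries 5 and 7, against 14.6% and 12.9% in CD24Neg libraries 2 and 4 and 11.2% and 11.8% in CD24Neg libraries 6 and 8.

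Groups without overlap over all 8 libraries cannot overlap within a number range, so the values within ranges, with 2 libraries a group, describe size only. mt-Cytb averaged 13.2% in CD24Mid against 9.86% in CD24Neg within the low numbers, and 14.9% against 10.9% within the high ones. mt-Co1 averaged 30.8% against 36.0% within the low numbers, and 31.7% against 36.8% within the high ones. mt-Nd5, whose shares overlapped over all 8 libraries, averaged 4.10% in CD24Mid against 3.44% in CD24Neg within the low numbers, and 5.13% against 4.67% within the high ones. These differences within ranges were not tested. With low against high numbers as a term in the edgeR model, all 14 members were called lower in CD24Mid.

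**Figure D3:**
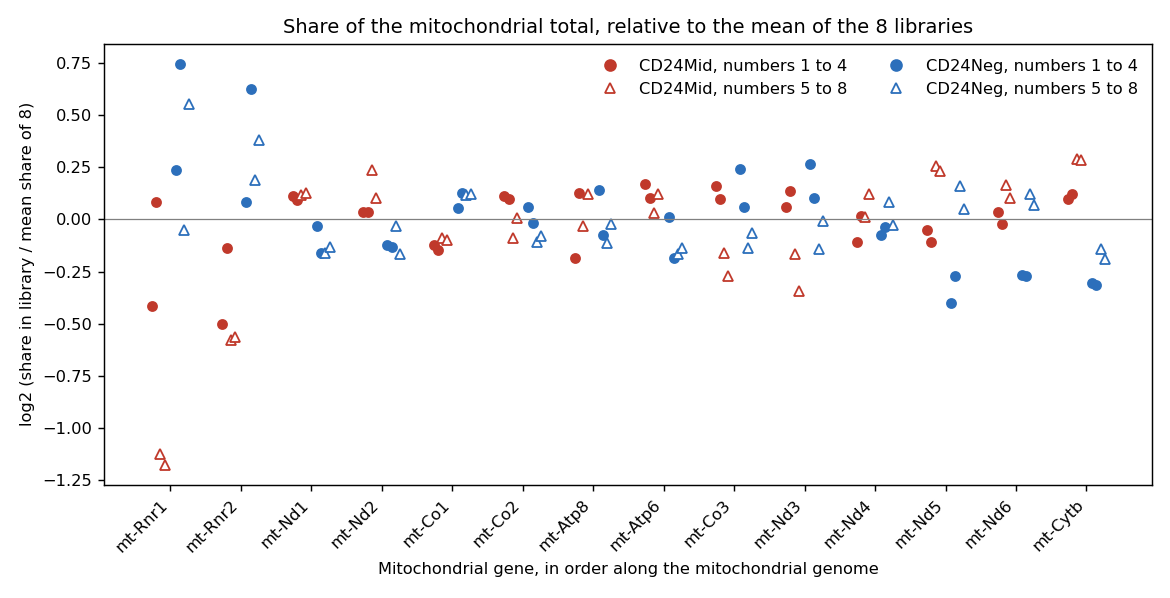
Share of the mitochondrial total for each of the 14 genes, as log2 of the share in a library over the mean share of the 8 libraries, with CD24Mid left of CD24Neg, filled circles for sample numbers 1 to 4 and open triangles for 5 to 8. mt-Cytb lies above 0 in all 4 CD24Mid and below 0 in all 4 CD24Neg libraries, mt-Co1 the reverse, and for mt-Co3 and mt-Nd5 the circles separate from the triangles within both groups.

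Levels were also ordered per length, on the deposited estimate read as fragments per kilobase per 1000000 mapped fragments. In CD24Mid mt-Co2 (22362 ± 2645, SD, n = 4) and mt-Co1 (21750 ± 878) stood highest and exchanged places between libraries. They were followed by mt-Atp8, mt-Co3 and mt-Atp6, whose order also varied by library, then by mt-Cytb (12686 ± 274), mt-Nd1, mt-Nd4, mt-Nd2 with mt-Nd3, mt-Nd6 and mt-Nd5 (2474 ± 184). In CD24Neg mt-Co1 (95042 ± 12818) was above mt-Co2 (79889 ± 12961) and mt-Co2 above mt-Co3 in all 4 libraries. The order below was mt-Atp8 with mt-Atp6, mt-Cytb, mt-Nd4 with mt-Nd1, mt-Nd3 with mt-Nd2, mt-Nd6 and mt-Nd5 (8234 ± 1836).

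The highest of the 12 mRNAs lay 9.04-fold above the lowest in CD24Mid and 11.5-fold in CD24Neg. Both rRNAs lay below every tested mRNA in both groups, mt-Rnr2 at 737 ± 149 in CD24Mid against 4677 ± 751 in CD24Neg and mt-Rnr1 at 459 ± 220 against 3313 ± 853. These are levels in the libraries, and the part of library preparation in the low rank of the rRNAs was not tested. The level of mt-Atp8 rests on a mean effective length of 50.5 bases, the shortest of the 14.

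Partner subunits from the nuclear genome were compared within each complex, as the log2 ratio of summed mitochondrially encoded to summed nuclear-encoded CPM. Library scaling cancels in this ratio. For complex I it was 2.08, 2.21, 2.41 and 2.43 in CD24Mid libraries 1, 3, 5 and 7, against 4.47, 4.24, 4.51 and 4.88 in CD24Neg libraries 2, 4, 6 and 8. For complex IV it was 3.60, 3.72, 3.78 and 3.78 in CD24Mid against 6.14, 5.89, 5.94 and 6.49 in CD24Neg. The ratios did not overlap, and the difference, CD24Mid minus CD24Neg, was -2.24 for complex I, -1.88 for complex III, -2.40 for complex IV and -2.12 for complex V. Mitochondrially encoded subunits were thus 4.72-fold, 3.67-fold, 5.27-fold and 4.34-fold lower in CD24Mid relative to nuclear-encoded ones (4 two-sided exact permutation tests, p = 0.0286 each, n = 4 each).

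The direction of the nuclear-encoded subunits themselves depended on the scaling. With TMM, 59 of 77 were lower and 1 was higher in CD24Mid, with 17 not called and a median log2 fold change of -0.54, where 34.3% of all tested genes were lower and 35.5% higher. On unscaled totals 0 were lower and 53 higher, with a median of 0.39, where 12.9% of all tested genes were lower and 69.8% higher. Relative to the median of all genes, 0.015 with TMM and 0.96 on unscaled totals, the list lay lower both times. Upper-quartile scaling called 37 lower and 1 higher, where 27.3% of all tested genes were lower and 43.6% higher. The deposited estimate, tested with limma, called 0 lower and 46 higher, where 13% of all tested genes were lower and 67.8% higher. With TMM the list included 24 of 36 subunits of complex I, 3 of 4 of complex II, 7 of 9 of complex III, 11 of 11 of complex IV and 14 of 17 of complex V called lower in CD24Mid.

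The lowest log2 fold change of a nuclear-encoded subunit was that of Ndufa1, an accessory subunit of complex I, at -1.23 ± 0.15 SE with TMM (43.0 ± 9.38 CPM in CD24Mid against 101 ± 8.79 CPM in CD24Neg) and -0.29 on unscaled totals, where it was not called. Sdhb, the iron-sulfur subunit of complex II, was at -0.97 ± 0.14 SE with TMM (216 ± 34.8 CPM against 422 ± 43.9 CPM) and at -0.029 on unscaled totals, not called. Sdha, the catalytic subunit of complex II, was not called with TMM (601 ± 52.5 CPM in CD24Mid, 725 ± 56.1 CPM in CD24Neg, log2 difference -0.27, adjusted p by edgeR 0.0677) and was higher in CD24Mid on unscaled totals (0.67) and with limma on the deposited estimate (0.65). It was called lower in CD24Mid with DESeq2 (-0.26, adjusted p 0.024), without CD24Mid library 1 (-0.33, adjusted p by edgeR 0.0253) and with low against high sample numbers as a term (-0.27, adjusted p by edgeR 0.0402). Atp5mc2, one of several genes for the c subunit of ATP synthase, was the single subunit called higher in CD24Mid with TMM (0.47 ± 0.17 SE). Its groups overlapped, its gene-unique counts came to 58.3% of its estimated reads, and it was not called without CD24Mid library 1 or without CD24Mid library 3 (0.41 and 0.36, adjusted p by edgeR 0.0657 and 0.081).

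**Figure D4:**
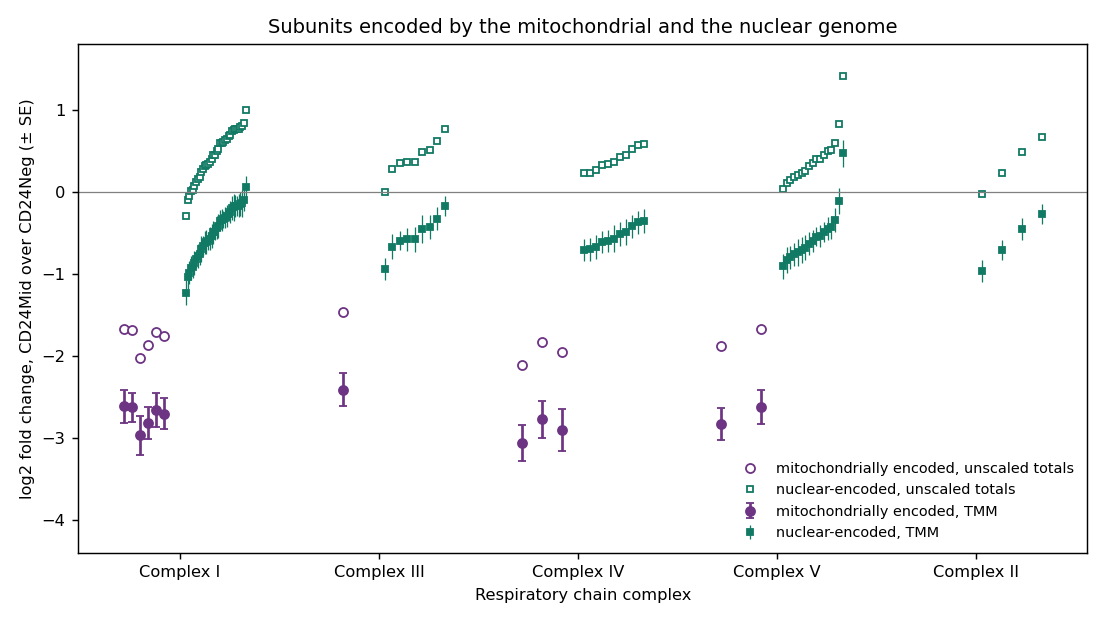
Log2 fold change, CD24Mid over CD24Neg, of mitochondrially encoded (circles) and nuclear-encoded (squares) respiratory chain subunits by complex, with TMM scaling (filled, ± SE) and on unscaled library totals (open); complex II has nuclear-encoded subunits only. Mitochondrially encoded subunits lie below the nuclear-encoded ones of their complex with either scaling, while the nuclear-encoded ones lie mostly below 0 with TMM and mostly above 0 on unscaled totals.

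Nuclear genes that copy, transcribe, process or regulate the mitochondrial genome were more often higher than lower in CD24Mid. Of 43 tested, 28 were higher and 8 lower in CD24Mid, with 7 not called and a median log2 fold change of 0.65, against 35.5% higher and 34.3% lower among all genes tested. On unscaled totals 38 were higher and 3 lower, where 69.8% of all tested genes were higher and 12.9% lower. The 3 lower ones were Mterf2, Esrra and Ppargc1a.

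Of 14 genes of mitochondrial DNA transcription and maintenance, 9 were higher and 3 lower in CD24Mid, beside 35.5% and 34.3% of all genes tested. Tfam, which packages mitochondrial DNA and starts its transcription, was at 89.9, 99.9, 86.7 and 90.7 CPM in CD24Mid libraries 1, 3, 5 and 7, against 41.8, 43.5, 40.1 and 39.9 CPM in CD24Neg libraries 2, 4, 6 and 8 (1.15 ± 0.091 on the log2 scale, SE; adjusted p by edgeR, 1.21e-06). Twnk, the replicative helicase, was 3.06-fold higher and Mgme1, a nuclease of mitochondrial DNA replication, 4.87-fold higher in CD24Mid. Tfb2m, which acts with the polymerase at transcription start, was 2.13-fold higher, with gene-unique counts at 24.7% of its estimated reads. Polrmt, the mitochondrial RNA polymerase, did not pass (52.7 ± 6.85 CPM in CD24Mid against 46.5 ± 2.99 CPM in CD24Neg, log2 difference 0.18, adjusted p by edgeR 0.167) but was called higher in CD24Mid with upper-quartile scaling (0.40), on unscaled totals (1.12) and with limma on the deposited estimate (0.97). Mterf2, of the mitochondrial transcription termination factor family, was 3.80-fold lower in CD24Mid (4.67 ± 0.464 CPM against 17.7 ± 2.49 CPM).

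Of 22 genes of mitochondrial RNA processing and stability, 16 were higher and 3 lower in CD24Mid, beside 35.5% and 34.3% of all genes tested. Prorp, the nuclease subunit that cuts the leading end of mitochondrial tRNAs, was 2.94-fold higher, and Fastkd2, a mitochondrial RNA-binding protein, 2.90-fold higher. Lrpprc, which stabilises mitochondrial mRNAs, was at 163, 164, 197 and 193 CPM in CD24Mid against 92.1, 91.7, 78.7 and 95.9 CPM in CD24Neg, 1.999-fold higher in CD24Mid. Slirp, its binding partner, did not pass with TMM (27.8 ± 3.495 CPM in CD24Mid against 23.9 ± 2.87 CPM in CD24Neg, edgeR adjusted p = 0.149). It was called higher in CD24Mid with upper-quartile scaling (0.44 on the log2 scale), on unscaled totals (1.16), with limma on the deposited estimate (1.13), without a filter on low counts (0.32), without CD24Neg library 2 (0.33) and with low against high sample numbers as a term (0.21). The 3 lower genes, Fastk, Ptcd1 and Angel2, had log2 fold changes of -0.93, -0.38 and -0.54 with TMM and 0.011, 0.56 and 0.40 on unscaled totals.

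Of 7 regulators of mitochondrial biogenesis, 3 were higher and 2 lower in CD24Mid, with 2 not called. Of all genes tested, 35.5% were higher and 34.3% lower, and the counts of this short list lay near those shares. Ppargc1a and its relative Pprc1 went opposite ways. Ppargc1a, the coactivator PGC-1alpha, was at 19.5, 13.4, 19.0 and 22.3 CPM in CD24Mid libraries 1, 3, 5 and 7, against 69.5, 83.3, 110 and 78.8 CPM in CD24Neg libraries 2, 4, 6 and 8. It was 4.602-fold lower in CD24Mid (-2.20 ± 0.18 on the log2 scale, SE; adjusted p by edgeR, 1.62e-06). Esrra, a nuclear receptor that works with it, was 2.95-fold lower in CD24Mid (133 ± 22.6 CPM against 393 ± 27.1 CPM). Pprc1, a coactivator related to PGC-1alpha, was at 61.7, 64.1, 70.9 and 61.5 CPM in CD24Mid against 9.50, 11.8, 8.79 and 8.94 CPM in CD24Neg, 6.63-fold higher in CD24Mid (2.73 ± 0.12 on the log2 scale, SE; adjusted p by edgeR, 9.59e-08). The transcription factor genes Nrf1 and Gabpb1, which act on nuclear genes for mitochondrial proteins, were 1.46-fold and 1.60-fold higher in CD24Mid. Gabpa and Ppargc1b were not called with TMM (log2 fold changes of 0.11 and 0.12, adjusted p by edgeR 0.658 and 0.46).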

How the data were processed

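Total RNA from sorted cells was made into libraries with a TruSeq RNA kit, per the labels' protocols; whether polyadenylated RNA was selected is not given in the sources used here. Reads were aligned with Bowtie 0.12.8 to NCBIM37, per the submitters' processing notes; column names are those of MMSEQ, and the sources used here do not state its version, annotation or strand setting. The authors deposited, per gene, unnormalised counts of gene-unique reads and a log estimate that includes shared reads, read here as a natural log (ln) of fragments per kilobase and per 1000000 mapped (the scale is not stated; the slope of log unique counts on it was 0.966 to 0.981). Estimated reads are its exponential times effective length and mapped fragments (12401668 to 20445879 per library, per the file headers), rounded for testing. Symbols came from GENCODE and RefSeq tables of GRCm38, matching 32897 of 37620 IDs (87.4%), which held 99.3% of the counts; no row lacked an ID.

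The count test was edgeR 4.0.16 under R 4.3.3 (quasi-likelihood with robust fitting, TMM, filterByExpr, group as the only term, Benjamini-Hochberg over 12840 genes, threshold 0.05); SE is the log2 fold change divided by the root of F. Alternatives used limma 3.58.1 and DESeq2 1.42.0. Shares and ratios were tested by two-sided exact permutation in Python 3.11.15 (70 regroupings of 8 libraries, and 35 with 1 library left out). On simulated counts for this comparison (12688 genes), the test called 34% of genes altered 1.5-fold, 96% of those altered 2-fold, 100% of those altered 4-fold or 8-fold, with 50 genes per size, and 0.1% of unaltered ones. The simulation had 1 dispersion for all genes, few altered genes and no large shift in composition. Its rates need not hold for the real libraries, where 69.8% of tested genes were called. Between libraries of a group the chi-square per degree of freedom was 11.6 or more, so none was counted as a repeat. Members and gene lists were chosen with earlier results of these data known. Genes named are all mRNAs and rRNAs and the tRNAs with counts. Of each nuclear list they are the 3 with the largest absolute fold change called in each direction. Also named are 7 fixed genes (Polrmt, Tfam, Tfb2m, Lrpprc, Slirp, Ppargc1a and Sdha), and Gabpa and Ppargc1b, which complete the list of regulators. Examples were drawn from these, and marker lists were summed in CPM. Of the other marker lists, enteroendocrine genes were higher in CD24Mid for 4 of 5 and goblet genes lower for 3 of 5. Paneth genes were higher for 1 of 5, with 4 not called. Tuft genes were higher for 1 of 3 tested, myeloid genes for 2 of 4 tested and mesenchymal genes for 1 of 1 tested. No erythroid gene could be tested (Hba-a1 was at 0). Of all genes tested, 35.5% were higher and 34.3% lower in CD24Mid. Counts in lists this short were not tested against those shares.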

Additional observations from a re-analysis of the deposited data

Results flagged for a closer look

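In 8 of 170 groups of 4 values, 1 library lay far from the other 3, by a gap above Dixon's 95% critical share of the group's range; chance gives about 1 in 20. The complex V share of mitochondrial mRNA was 2.94% in CD24Mid library 5, against 3.15% to 3.16% in the other CD24Mid libraries. The mt-Rnr2 share of the mitochondrial total was 1.43% in CD24Mid library 3, against 1.06% to 1.12% in the others of that group. The mt-Co1 share was 35.1% in CD24Neg library 2, against 36.7% to 36.9% in the other CD24Neg libraries. The ratio of mt-Rnr1 to mt-Rnr2 was 0.320 in CD24Neg library 6, against 0.411 to 0.427. Sdha stood at 680 CPM in CD24Mid library 1, against 571 to 585 CPM in the other CD24Mid libraries. Mterf2 stood at 21.4 CPM in CD24Neg library 6, against 16.3 to 16.6 CPM. Esrra was apart in both groups, at 167 CPM in CD24Mid library 1 (119 to 124 CPM in the others) and at 352 CPM in CD24Neg library 4 (402 to 412 CPM in the others).

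A row outside the members, ENSMUSG00000090378, to which the tables at hand give no symbol, took 0.246% of all gene-unique counts on average. It had 20605, 19923, 17190 and 19581 gene-unique counts in CD24Mid libraries 1, 3, 5 and 7, against 50425, 35298, 59670 and 55134 in CD24Neg libraries 2, 4, 6 and 8. Its ratio to mt-Atp6 was 0.508 to 0.543 in CD24Mid and 0.513 to 0.523 in CD24Neg. It was not counted as mitochondrial. Its estimated reads, at 54453 to 64419 in CD24Mid and 119058 to 193164 in CD24Neg, exceeded its gene-unique counts, and whether it shares reads with mt-Atp6 was not tested.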

How the results depend on the processing

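All 14 tested mitochondrial genes were called lower in CD24Mid under every scaling, test, filter and left-out library, with medians from -1.81 to -2.84. The mitochondrial share, the complex III and IV shares and the ratios to nuclear-encoded subunits kept direction and call throughout. With 1 library left out, the rRNA share differed by -1.37 to -0.987 points and the complex V share by 0.322 to 0.443 points, called only without CD24Neg library 2. The mt-Atp6 share was not called on estimated reads or per length, nor that of mt-Nd2 per length, and there the groups overlapped. Without any 1 CD24Mid library the mt-Atp6 share gave an exact permutation p of 0.0571, as did mt-Nd2 without CD24Mid library 5. The groups stayed without overlap in these cases.

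The calls of nuclear-encoded subunits changed with the scaling (settings added after seeing the data): 59 were lower in CD24Mid with TMM, 37 after upper-quartile scaling, 0 on unscaled totals and 0 with limma on the estimate, with 53 (unscaled) and 46 (limma) higher; 0 to 1 were higher with a library left out. Of the nuclear genes of mitochondrial gene expression, 3 were lower in CD24Mid on unscaled totals and 3 with limma. Log2 fold changes below 0 with TMM turned positive, on unscaled totals and then with limma, for Sdha (0.67, 0.65), Sdhc (0.48, 0.59), Sdhd (0.23, 0.21), Uqcrb (0.35, 0.33), Uqcrq (0.27, 0.16), Cox6b1 (0.27, 0.25), Cox7a2 (0.23, 0.21), Cox7b (0.23, 0.13), Atp5f1d (0.029, 0.0045), Atp5mk (0.10, 0.11), Atp5if1 (0.14, 0.12), Mterf3 (0.48, 0.42), Polg2 (0.13, 0.13), Ptcd1 (0.56, 0.56) and Angel2 (0.40, 0.45), and on unscaled totals alone for Uqcrfs1 (0.00038) and Fastk (0.011). These 2 settings leave out the scaling factors by construction.

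No paired analysis was possible because the groups share no replicate number and no label pairs consecutive numbers. The tRNAs had too few counts to compare, for a reason not tested. Shared reads limit mt-Nd4l, mt-Atp6 and mt-Atp8, and to a lesser degree mt-Co1 and mt-Co2.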
